A study of Mus musculus with 10 samples.

Results

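Nuclei of the dentate gyrus gate are described here: 786 of the 5658 hippocampal nuclei, and of 11624 nuclei in all, held the RNA of dentate granule neuron genes by a rule on measured counts. A nucleus was taken if it had at least 2 UMIs (unique molecular identifiers, each counting 1 captured RNA molecule) from at least 2 of the 7 genes Prox1, C1ql2, Dsp, Slc26a10, Dock10, Sema5a and Pcdh20. It also had to have 0 UMIs of Gad1 and Gad2, and fewer UMIs of the 6 excluding genes Fibcd1, Spink8, Slc9a2, Ndst4, Cpne4 and Galnt3 than of the 7. These 15 genes chose the nuclei, so their values are given as a description and they were left out of all tests. The rule and the gene lists were taken up with earlier results of these data known.

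The libraries were made by DroNc-seq, in which single nuclei are captured in droplets with barcoded beads, from flash-frozen, archived brain tissue of C57BL/6 mice. Hippocampus and prefrontal cortex gave 5 libraries each, titled with the numbers 0 to 3, with number 0 present as libraries 0a and 0b. Age, sex, treatment and the link from title number to mouse are not given in the sources used here, and no genetic change or agent is named for any library. The granule-gated nuclei were set against 2 reference classes from the same hippocampal libraries: all 4872 other hippocampal nuclei, and 101 pyramidal-gated nuclei picked by the mirror rule on the 6 excluding genes. Libraries 0a and 0b were summed, so each class gave 4 sums, called units 0 to 3. The 2 comparisons share the granule-gated sums.

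Dentate granule neurons are the small, densely packed glutamatergic principal neurons of the dentate gyrus. They receive the perforant path from entorhinal cortex and send mossy fibres, which release glutamate together with zinc, to CA3 pyramidal neurons and hilar mossy cells. The homeobox factor Prox1 keeps their identity, and new granule neurons are added from a progenitor niche in adult mice.

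Hippocampal libraries held 1443244 to 1972542 UMIs each. The share of nuclei in the gate was 10.7% in library 0a (115 of 1070; exact binomial 95% interval 8.96% to 12.8%) and 9.20% in library 0b (120 of 1304; 7.69% to 10.9%). It was 15.7% in library 1 (166 of 1055; 13.6% to 18.1%), 15.5% in library 2 (165 of 1062; 13.4% to 17.9%) and 18.9% in library 3 (220 of 1167; 16.6% to 21.2%). Libraries 0a and 0b were thus below the other three by more than counting error. Among nuclei of at least 500 UMIs the shares were 13.4% and 14.1% in libraries 0a and 0b, and 16.3%, 17.2% and 19.4% in libraries 1, 2 and 3, and there the intervals of 0a and 0b overlapped those of libraries 1 and 2. Over all nuclei the mean over the 4 units was 15.0% ± 3.73 (SD, n = 4). The same gate took 35 of 5966 cortical nuclei (0.587%), and 0 of those 35 had a UMI of C1ql2 or of Dsp, which allows a share of nuclei with such a UMI of up to 8.57%. Both are genes of the rule and sparse in the hippocampal gate as well. Intervals cover counting error only.

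**Figure D1:**
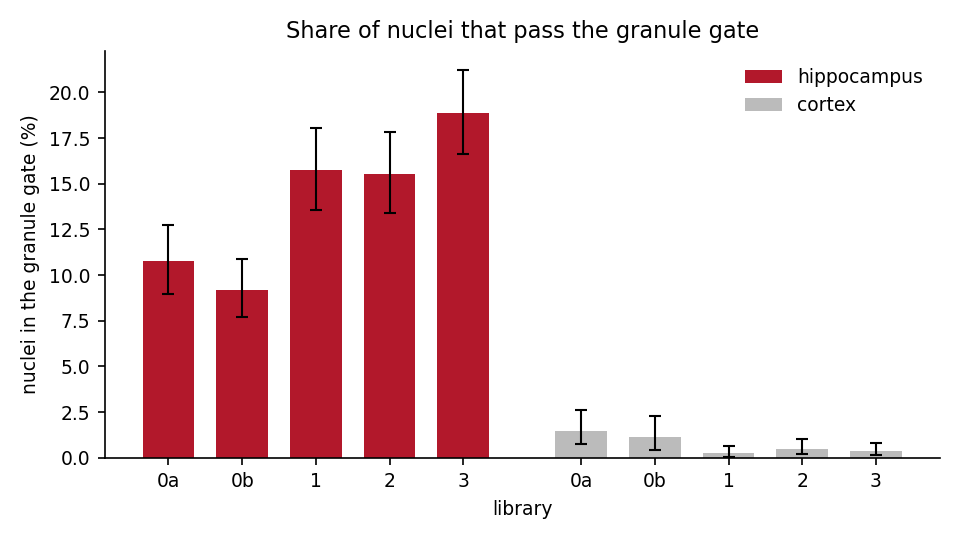
Bars give the percentage of nuclei that pass the granule gate in each library, hippocampus left and cortex right, with exact binomial 95% intervals. The 5 hippocampal libraries lie between 9.20% and 18.9%, and the 5 cortical libraries between 0.246% and 1.47%.

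Gate genes were sparse in single nuclei. Of the gated nuclei, 445 (56.6%) showed 2 of the 7 gate genes and 222 showed 3, and 250 (31.8%) had exactly 2 gate UMIs. Prox1 was seen in 51.3% of gated nuclei and 6.42% of other nuclei. C1ql2, a secreted synaptic C1q-like protein, was seen in 32.8% of gated and 3.24% of other nuclei, and Dsp, the desmosome protein desmoplakin, in 16.5% and 1.15%. Pcdh20, a protocadherin, was seen in 43.6% of gated nuclei, but also in 29.7% of pyramidal-gated nuclei. Just outside the gate, 831 nuclei had 1 gate UMI and none of Gad1 or Gad2, 208 had at least 2 UMIs of a single gate gene, and 134 had 2 gate genes together with Gad1 or Gad2. Zbtb20, a zinc-finger factor of hippocampal neurons and of astrocytes that the rule did not use, stood at 3009 CPM (UMIs of a gene scaled to a total of 1000000 UMIs) in the nuclei with exactly 2 gate UMIs. It stood at 3515 CPM in the 346 gated nuclei with 4 or more, and at 2018 CPM in the 681 nuclei outside the gate with exactly 1 gate UMI and none of Gad1, Gad2 or the excluding genes. The rule needs UMIs, and gated nuclei were deeper, with a median of 1185 to 1715 UMIs per unit, against 689 to 1131 in other nuclei.

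The label was checked against marker lists of the other cell types, counting a nucleus as marked for a class when it had UMIs of at least 2 of its markers. Excitatory neuron markers marked 81.8% of granule-gated nuclei, 49.3% of other nuclei and 96.0% of pyramidal-gated nuclei. Inhibitory neuron markers marked 3.56% of granule-gated and 9.93% of other nuclei, with Gad1 and Gad2 barred by the gate. Oligodendrocyte markers, however, marked 28.9% of granule-gated nuclei, 24.4% of other nuclei and 21.8% of pyramidal-gated nuclei, and astrocyte markers 23.5%, 25.5% and 17.8%. Of the oligodendrocyte-marked gated nuclei, 177 (78.0%) were also marked as excitatory, and nuclei with a UMI of C1ql2 or Dsp were oligodendrocyte-marked in 27.3% of cases. Hilar mossy cell markers marked 3.69% of granule-gated, 4.08% of other and 13.9% of pyramidal-gated nuclei. In that list Ociad2, which is also on the list of pyramidal neuron genes, had the most UMIs (148 in granule-gated nuclei), and Drd2 had 0. The mossy cell share is therefore a weak measure of mossy cells. Thalamic neuron markers marked 10.1% of granule-gated, 11.4% of other and 9.90% of pyramidal-gated nuclei.

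In all, 353 granule-gated nuclei (44.9%) were glia-marked, against 2347 other nuclei (48.2%) and 35 pyramidal-gated nuclei (34.7%). Glia-marked means marked for at least 1 glial, endothelial, meningeal fibroblast, ependymal or choroid plexus class. Glia-marked nuclei were 59.6% of granule-gated nuclei in unit 0, and 40.4%, 38.2% and 37.7% in units 1, 2 and 3. A scorer of simulated pairs, set to take the top 6% of each library, called 82 gated nuclei (10.4%) and 302 other nuclei (6.20%) doublets. A further 75 gated nuclei (9.54%) were neither glia-marked nor marked as excitatory. Most gated nuclei thus held excitatory neuron RNA, many of them together with RNA of other cells. The members of the gate are called granule-gated nuclei throughout. Whether the RNA of other cells is free RNA, joined nuclei or wrongly gated nuclei was not tested.

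**Figure D2:**
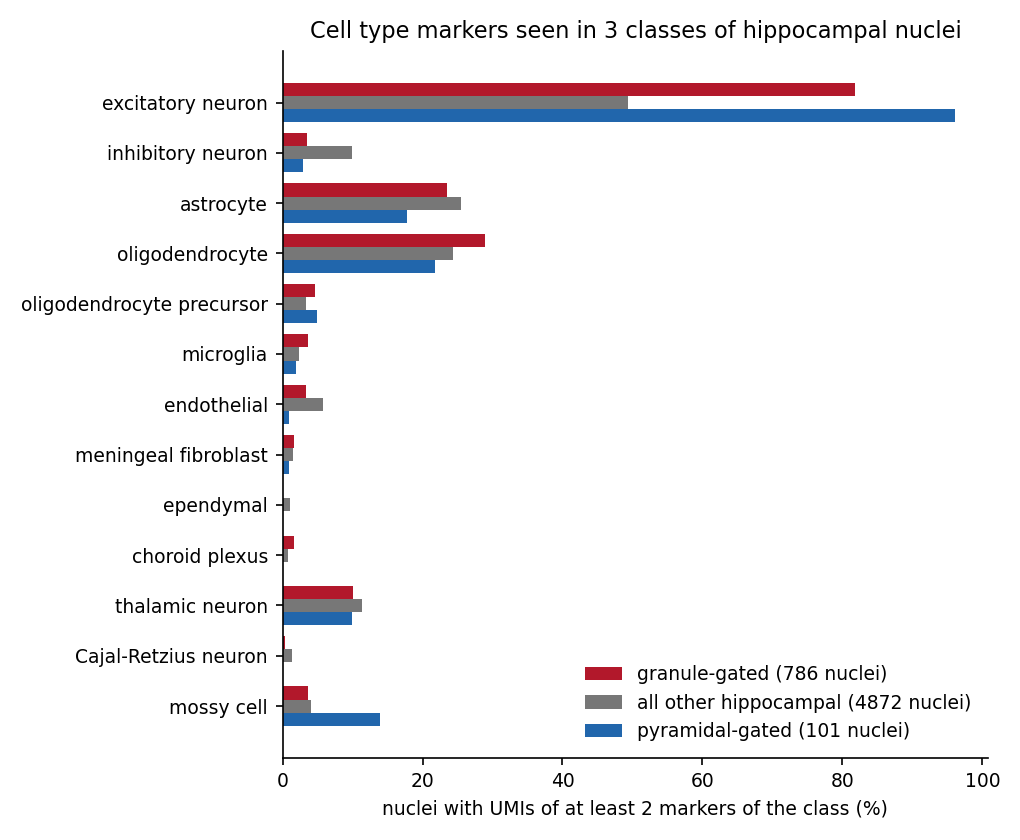
Horizontal bars give the percentage of nuclei with UMIs of at least 2 markers of each cell class, in granule-gated, all other hippocampal and pyramidal-gated nuclei. Excitatory markers differ most (81.8%, 49.3% and 96.0%), while oligodendrocyte markers are at similar heights (28.9%, 24.4% and 21.8%).

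Unit 0 stood apart. Between library 0a or 0b and libraries 1 to 3, gated sums differed with a chi-square of 2.79 to 3.39 for each degree of freedom, against 1.26 to 1.37 within those sets, and no 2 hippocampal libraries shared more than 1 barcode. Endothelial markers summed to 2654 CPM in granule-gated nuclei of unit 0 and to 256 to 683 CPM in units 1 to 3. Thalamic neuron markers summed to 1046 CPM in granule-gated nuclei of unit 0 and to 318 to 418 CPM in units 1 to 3. In other nuclei they summed to 999 CPM in unit 0 and to 517 to 625 CPM in units 1 to 3. Choroid plexus markers summed to 1867 CPM in gated nuclei of unit 0 and to 12.4 to 37.1 CPM in units 1 to 3. Nearly all of this was Ttr, with 1135 UMIs in granule-gated nuclei of all units, against 5 to 24 for each other gene of the list. Only 1.65% of granule-gated nuclei had UMIs of at least 2 choroid plexus markers. Other nuclei of unit 0 also held RNA of this list, at 1095 CPM, against 25.0 to 32.6 CPM in units 1 to 3. Granule-gated nuclei that were not glia-marked still held 514 CPM of this list in unit 0 and 7.55 to 35.1 CPM in units 1 to 3. Leaving out glia-marked nuclei thus did not remove this signal. The choroid plexus list is itself used to call a nucleus glia-marked, so a lower sum follows in part from the filter. The counts of changed genes below are given for all nuclei and then with the glia-marked nuclei left out of both classes, a choice made after these values were seen.

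Granule identity genes outside the gate were higher in the gated nuclei. Of 24 listed genes, 23 passed the filter on low counts, 20 rose and 1 fell, with a median log2 fold of 1.20 beside 0.01 for all genes tested. Across the genome 10593 genes were tested, of which 859 (8.11%) were called at an adjusted p under 0.05, 486 (4.59%) higher and 373 (3.52%) lower in granule-gated nuclei. With glia-marked nuclei left out of both classes, 22 identity genes were tested, and again 20 rose and 1 fell, with a median of 1.49. Then 913 of 7710 genes (11.8%) were called, 485 (6.29%) higher and 428 (5.55%) lower. The list was chosen with earlier results of these data known, so its direction is no independent evidence. The 859 calls became 1516 without unit 0, 469 without unit 1, 377 without unit 2, 333 without unit 3 and 456 under DESeq2.

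Sequence around the transcription start is shown for 4 identity genes, since they rose together. Rfx3 (chr19:27761721-28011166, minus strand) encodes a winged-helix factor of ciliary genes, and C1ql3 (chr2:13003457-13011806, minus strand) a secreted C1q-like synaptic protein. They have the smallest p-values of the listed genes with a single promoter window. Tiam1, a Rac exchange factor of dendritic spines, and Maml2, a Notch coactivator, are shown because their windows hold the E-box of neuronal bHLH factors such as Neurod1, and they were chosen after that search. The motif searched was CAGATG and its other strand CATCTG, in capitals below. Each window runs from 250 bases before to 50 bases after the start, 5′ to 3′ on the gene's strand, from RefSeq on GRCm38.p6, around the start that RefSeq gives. Gene spans are those of GENCODE, and for C1ql3 the RefSeq start lies inside the GENCODE span.
Rfx3, chr19:28011117-28011416, minus strand: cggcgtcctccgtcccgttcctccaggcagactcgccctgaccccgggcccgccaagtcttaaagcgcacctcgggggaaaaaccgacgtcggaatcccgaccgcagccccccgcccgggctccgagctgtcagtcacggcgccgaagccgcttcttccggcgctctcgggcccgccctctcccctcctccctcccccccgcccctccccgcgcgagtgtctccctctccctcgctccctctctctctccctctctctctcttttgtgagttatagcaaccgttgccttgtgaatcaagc
C1ql3, chr2:13010815-13011114, minus strand: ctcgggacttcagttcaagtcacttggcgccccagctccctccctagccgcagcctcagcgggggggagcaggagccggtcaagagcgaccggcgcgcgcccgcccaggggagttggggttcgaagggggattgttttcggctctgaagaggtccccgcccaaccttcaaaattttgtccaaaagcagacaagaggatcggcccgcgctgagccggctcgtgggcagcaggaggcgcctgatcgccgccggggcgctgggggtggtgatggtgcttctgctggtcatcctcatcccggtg
Tiam1, chr16:89818303-89818602, minus strand: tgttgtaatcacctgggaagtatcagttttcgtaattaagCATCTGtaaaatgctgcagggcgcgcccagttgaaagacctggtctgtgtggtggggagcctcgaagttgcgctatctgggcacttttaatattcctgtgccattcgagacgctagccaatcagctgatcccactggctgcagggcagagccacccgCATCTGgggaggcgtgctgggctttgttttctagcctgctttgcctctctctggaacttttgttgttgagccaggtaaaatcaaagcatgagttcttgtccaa
Maml2, chr9:13662210-13662509, plus strand: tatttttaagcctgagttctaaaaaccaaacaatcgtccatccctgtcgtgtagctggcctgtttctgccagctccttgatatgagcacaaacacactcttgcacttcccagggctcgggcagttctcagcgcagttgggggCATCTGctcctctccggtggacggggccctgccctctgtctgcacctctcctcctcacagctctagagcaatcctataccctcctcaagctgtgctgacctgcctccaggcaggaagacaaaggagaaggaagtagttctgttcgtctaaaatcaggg
The Tiam1 window has the motif 210 and 53 bases before the start, and the Maml2 window 108 bases before it. The windows of Rfx3 and C1ql3 have no match. Over the list, 22 genes had a promoter window and 4 of them (18.2%) held the motif in at least 1 window, as did 2 of the 19 matched genes (10.5%) among the 20 that rose. Over all genes with a window, 5196 of 27025 genes (19.2%) held it, so the listed genes were not above that share.

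Ahcyl2, a homologue of adenosylhomocysteinase that also binds IP3 receptors (chr6:29768011-29912310, plus strand), had the smallest p of the list. It stood at 505, 579, 901 and 657 CPM in granule-gated nuclei of units 0 to 3, against 172, 188, 236 and 213 CPM in other nuclei. Every granule-gated unit was above every unit of other nuclei, with a log2 fold of 1.70 ± 0.10 (SE; adjusted p = 1.21e-06, from edgeR's quasi-likelihood fit after Benjamini-Hochberg correction, as in all tests below). Rfx3 stood at 281, 310, 310 and 344 CPM in granule-gated nuclei, against 83.4, 103, 87.4 and 91.0 CPM in other nuclei, a log2 fold of 1.78 ± 0.12 with edgeR's adjusted p at 2.61e-06. C1ql3 stood at 265, 377, 401 and 443 CPM in granule-gated nuclei, against 91.5, 135, 112 and 131 CPM in other nuclei. Its log2 fold was 1.66 ± 0.12 and its units did not overlap either.

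Zbtb20 was the most abundant listed gene, at 2876, 3479, 3458 and 3407 CPM in granule-gated nuclei, against 1205, 2229, 2079 and 2037 CPM in other nuclei. The groups did not overlap, and the fold was smaller, at 0.86 ± 0.09 on the log2 scale (edgeR adjusted p = 0.000106). Calb1, the calcium buffer calbindin of mature granule neurons, averaged 203 ± 41.0 CPM in granule-gated and 94.3 ± 6.01 CPM in other nuclei (SD, n = 4 units each), a log2 fold of 1.09 ± 0.14. Stxbp6, the SNARE-binding protein amisyn, rose by a log2 fold of 1.42 ± 0.15, and Trpc6, a cation channel, by 1.62 ± 0.21. Npnt, the matrix protein nephronectin, averaged 108 ± 30.1 CPM in granule-gated and 30.5 ± 6.17 CPM in other nuclei, a log2 fold of 1.79 ± 0.19.

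The largest fold of the list was that of Tdo2, tryptophan 2,3-dioxygenase, at 2.35 ± 0.37, on 44 UMIs in granule-gated nuclei and 40 in other nuclei. Glis3, a Krüppel-like zinc-finger factor, rose by 2.10 ± 0.27 on the log2 scale and Lct, the disaccharidase lactase, by 2.12 ± 0.34. Tiam1 rose by 1.02 ± 0.15 and Lrrtm4, a leucine-rich postsynaptic protein of granule neurons, by 1.20 ± 0.16. Maml2 rose by 1.08 ± 0.24, a call lost under DESeq2 (adjusted p = 0.0621), after thinning and without unit 1 or unit 2. Slc4a4, a bicarbonate transporter that is also on the astrocyte list used to mark nuclei, rose by 0.60 ± 0.12. That call was lost under 7 alternatives, among them without unit 2 or 3, after thinning (0.11) and without glia-marked granule nuclei (0.17). The fold was 1.86 with glia-marked nuclei left out of both classes, a filter that uses Slc4a4 itself. The listed gene that fell was Ntrk2, the BDNF receptor, which astrocytes also express, by 0.55 ± 0.13 on the log2 scale, a call lost under DESeq2 and without unit 1, 2 or 3. Tox3 averaged 5.79 ± 4.74 CPM in granule-gated and 14.9 ± 3.96 CPM in other nuclei and did not pass the test (edgeR adjusted p = 0.156).

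**Figure D3:**
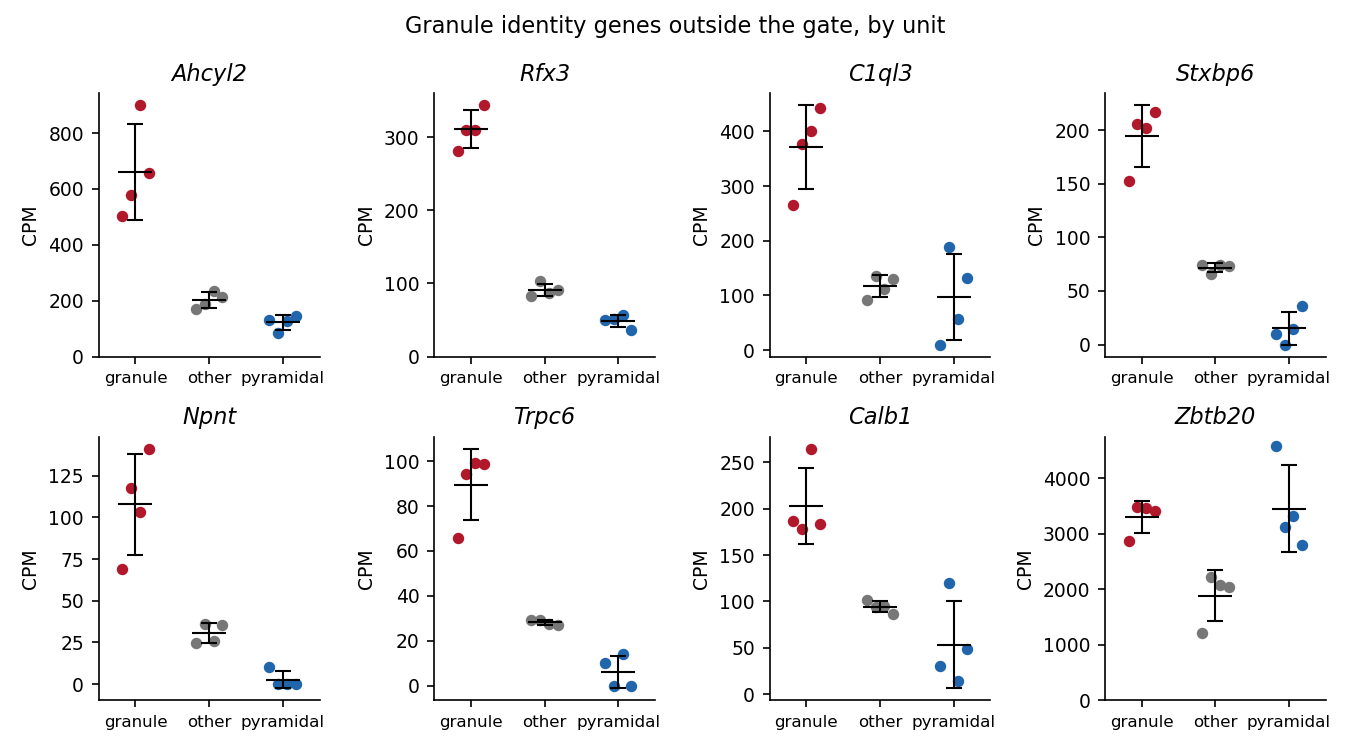
Points give CPM of 8 granule identity genes in the 4 units of granule-gated, all other hippocampal and pyramidal-gated nuclei, with the mean and SD in black, and each panel has its own axis. Ahcyl2 runs from 505 to 901 CPM in granule-gated nuclei, above 172 to 236 CPM in other nuclei, while Zbtb20 overlaps between granule-gated and pyramidal-gated nuclei.

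At equal depth the same genes were seen in more of the gated nuclei. Each nucleus was thinned to 500 UMIs, which kept 776 granule-gated, 3985 other and 101 pyramidal-gated nuclei and left out 10, 887 and 0. Ahcyl2 then had a UMI in 28.1% of granule-gated nuclei, 9.18% of other nuclei and 4.95% of pyramidal-gated nuclei, and in 57.2%, 20.7% and 22.8% before thinning. In cortical nuclei, which hold no dentate granule neurons, the share was 4.63% after thinning. C1ql3 was seen in 18.7% of granule-gated nuclei, 5.70% of other and 4.95% of pyramidal-gated nuclei, beside 5.34% of cortical nuclei, all thinned.

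Among all tested genes that averaged at least 50 CPM in the higher class, the 12 with the largest rise ran from 1.66 to 2.14 on the log2 scale. Besides Glis3, Npnt, Rfx3, Ahcyl2 and C1ql3, they included Vwa3b, Pter, Il1r1, Smoc2, Rreb1 and Npy2r. Vwa3b, a von Willebrand factor A domain protein, averaged 60.9 ± 27.1 CPM in granule-gated and 13.7 ± 3.59 CPM in other nuclei, a log2 fold of 2.14 ± 0.27. Pter, a phosphotriesterase-related enzyme, stood at 48.2, 67.4, 107 and 98.7 CPM in granule-gated nuclei, against 10.9, 20.1, 24.1 and 21.5 CPM in other nuclei. Every granule-gated unit of Pter was above every other unit, with a log2 fold of 2.08 ± 0.22. Il1r1, the interleukin-1 receptor, rose by 2.01 ± 0.30 on the log2 scale. Smoc2, a calcium-binding matrix protein, rose by 1.87 ± 0.22, and Rreb1, a Ras-responsive zinc-finger factor, by 1.69 ± 0.12 (edgeR adjusted p = 2.61e-06). Npy2r, a presynaptic neuropeptide Y receptor, averaged 63.9 ± 20.1 CPM in granule-gated and 19.7 ± 7.95 CPM in other nuclei, and its call was lost after thinning (edgeR adjusted p = 0.145).

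The 12 genes with the largest fall ran from -1.83 to -3.34. Npy, the neuropeptide, stood at 1.61, 13.5, 8.26 and 11.3 CPM in granule-gated nuclei, against 66.9, 116, 64.1 and 67.4 CPM in other nuclei, a log2 fold of -3.34 ± 0.34. Sst, the interneuron peptide somatostatin, fell by 1.83 ± 0.33, with 6.43, 80.8, 12.4 and 28.2 CPM in granule-gated nuclei, against 66.9, 123, 107 and 108 CPM in other nuclei. Its units overlapped, since unit 1 of the granule-gated nuclei was above unit 0 of the other nuclei. Col19a1, a collagen of interneurons, fell by 2.79 ± 0.34, and Cacna2d2, a calcium channel subunit, by 1.85 ± 0.45, a call lost under DESeq2 (adjusted p = 0.19) and without unit 1, 2 or 3. The gate barred nuclei with UMIs of Gad1 or Gad2, genes of interneurons, and the part of that rule in these 4 falls was not tested.

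Genes of other neurons were also among the largest falls. Meis2, a homeobox factor, averaged 11.9 ± 6.19 CPM in granule-gated and 57.3 ± 16.4 CPM in other nuclei, a log2 fold of -2.33 ± 0.31. Mpped1, a phosphoesterase-like gene of pyramidal neurons, stood at 11.2, 13.5, 16.5 and 14.1 CPM in granule-gated nuclei, against 66.6, 39.3, 54.9 and 58.3 CPM in other nuclei. It fell by 2.06 ± 0.28 with no overlap of units. Flrt1, an adhesion protein that binds latrophilins, fell by 2.32 ± 0.30, and Ptprt, a receptor phosphatase, by 2.30 ± 0.35. Tyro3, a TAM receptor kinase, fell by 2.02 ± 0.26, and Tm6sf1, Plcd4 and Etl4 by 1.83 to 2.23. With glia-marked nuclei left out of both classes, the 11 of these 12 genes that could be tested all fell, by 2.01 to 4.46 on the log2 scale.

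**Figure D4:**
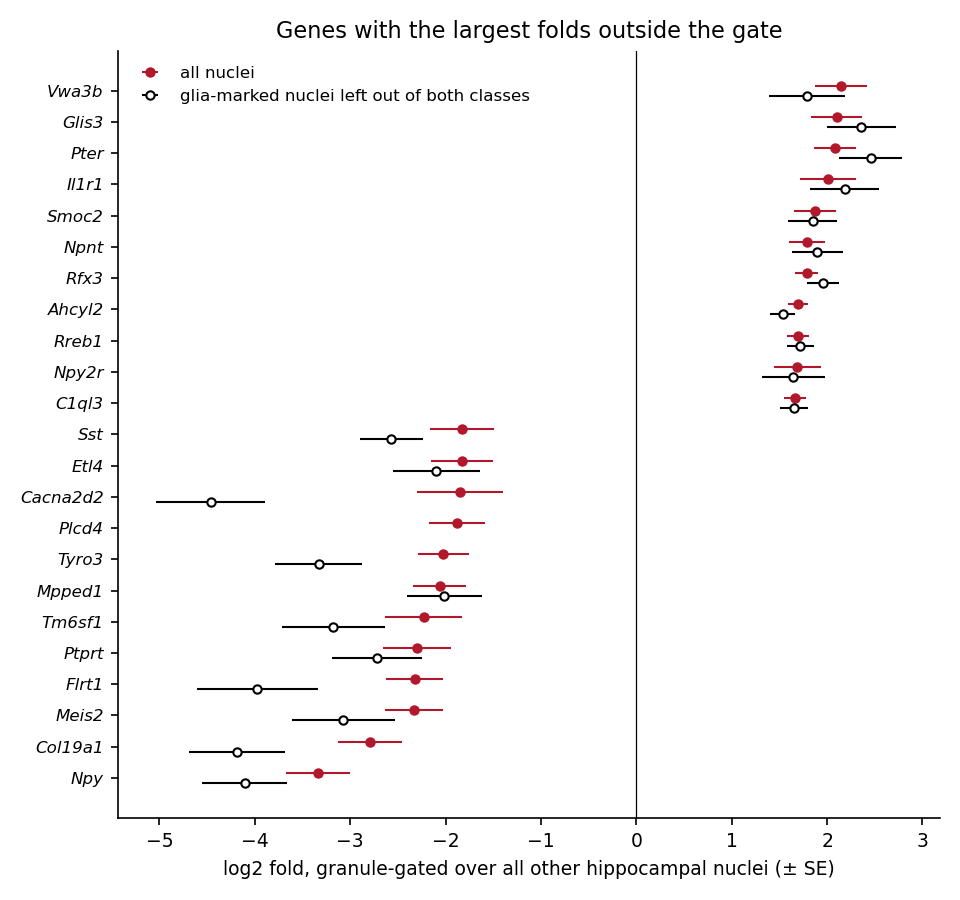
Points give the log2 fold, granule-gated over all other hippocampal nuclei, with SE, for 11 of the 12 largest rises and for the 12 largest falls; filled points use all nuclei, and open points leave glia-marked nuclei out of both classes. Npy lies lowest at -3.34 and Vwa3b highest at 2.14 in the filled points.

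Among the mossy fibre and vesicle genes, 8 of 25 tested rose and 3 fell, with a median log2 fold of 0.10. All genes tested had 4.59% higher and 3.52% lower. Synpr, the vesicle protein synaptoporin of mossy fibre terminals, stood at 122, 168, 149 and 226 CPM in granule-gated nuclei, against 45.8, 57.9, 83.2 and 68.0 CPM in other nuclei. The units did not overlap and the log2 fold was 1.42 ± 0.16. Adcy1, the calmodulin-activated adenylyl cyclase needed for mossy fibre potentiation, averaged 523 ± 104 CPM in granule-gated and 235 ± 24.3 CPM in other nuclei, a log2 fold of 1.15 ± 0.12. Cplx2, a complexin that clamps vesicle fusion, rose by 1.03 ± 0.10 and Bdnf, the neurotrophin stored in mossy fibres, by 1.03 ± 0.15. Slc30a3, the vesicular zinc transporter, rose by 0.74 ± 0.17 (edgeR adjusted p = 0.0146), a call lost without unit 1, 2 or 3 and in the gate of at least 3 UMIs. Sv2b, a vesicle glycoprotein, fell by 1.43 ± 0.25. Rims3 and Vgf were called lower, but the call of Rims3 was lost under DESeq2, without the replicate block and without unit 3, and that of Vgf without unit 2 or 3 and in the gate of at least 3 UMIs. Of 23 mossy fibre and vesicle genes tested with glia-marked nuclei left out of both classes, 9 rose and 5 fell, beside 6.29% and 5.55% over all genes.

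Receptor genes were called in both directions, beside 4.59% higher and 3.52% lower over all genes tested. A single call in a short list is not read as a result about the family. Of 22 AMPA and kainate receptor genes, 6 rose and 3 fell. Grik2, a kainate subunit at mossy fibre synapses, averaged 381 ± 115 CPM in granule-gated and 214 ± 36.0 CPM in other nuclei, a log2 fold of 0.80 ± 0.12. Gria1, an AMPA subunit, rose by 0.61 ± 0.08, while Gria4, the AMPA subunit of interneurons and glia, fell by 1.05 ± 0.16, with 103 ± 37.5 CPM in granule-gated and 215 ± 46.9 CPM in other nuclei. Of 7 metabotropic receptor genes 2 rose and 1 fell; Grm2, the presynaptic autoreceptor of mossy fibres, averaged 82.1 ± 17.4 CPM in granule-gated and 28.6 ± 2.19 CPM in other nuclei, a log2 fold of 1.48 ± 0.20. Of 6 NMDA receptor genes 1 fell and 0 rose. Of 15 GABA receptor genes 5 rose and 2 fell, with Gabra3, an alpha subunit, at a log2 fold of -1.73 ± 0.35. Of 16 neuropeptide and monoamine receptor genes 4 rose and 4 fell, and Npy1r, a postsynaptic neuropeptide Y receptor, rose by 1.36 ± 0.22. With glia-marked nuclei left out of both classes, 6 of 20 AMPA and kainate receptor genes rose and 3 fell, 2 of 4 metabotropic receptor genes rose and 0 fell, and 0 of 4 NMDA receptor genes rose and 1 fell. Likewise 6 of 14 GABA receptor genes rose and 2 fell, and 4 of 9 neuropeptide and monoamine receptor genes rose and 2 fell. The shares over all genes in that setting were 6.29% higher and 5.55% lower.

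Channel and calcium genes were likewise called in both directions, beside 4.59% higher and 3.52% lower over all genes tested. Of 35 potassium and HCN channel genes 8 rose and 6 fell. Kcnj6, the inward rectifier subunit GIRK2, rose by 1.09 ± 0.15 on the log2 scale. Kcnh7, an ERG channel, stood at 61.1, 60.6, 66.1 and 76.2 CPM in granule-gated nuclei, against 251, 160, 151 and 178 CPM in other nuclei, and fell by 1.52 ± 0.18 with no overlap. Of 21 sodium and calcium channel genes 4 rose and 3 fell; Cacna1h, a T-type calcium channel, rose by 1.30 ± 0.15 and Scn3a, a sodium channel, by 0.99 ± 0.13. Of 28 calcium store, pump and kinase genes 6 rose and 5 fell. Ryr1, a ryanodine receptor of calcium stores, averaged 194 ± 16.6 CPM in granule-gated and 67.6 ± 17.0 CPM in other nuclei, a log2 fold of 1.55 ± 0.17. Camk2b, a kinase subunit of synapses, rose by 0.93 ± 0.08, while Prkcb, a protein kinase C, fell by 1.14 ± 0.14. Without glia-marked nuclei in either class, 10 of 32 potassium and HCN channel genes rose and 5 fell. In that setting 4 of 20 sodium and calcium channel genes rose and 2 fell, and 6 of 26 calcium store genes rose and 6 fell. The shares over all genes were then 6.29% higher and 5.55% lower.

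Of 35 axon guidance genes 6 (17.1%) rose and 1 (2.86%) fell, beside 4.59% higher and 3.52% lower over all genes. Epha7, an ephrin receptor, averaged 518 ± 110 CPM in granule-gated and 245 ± 37.3 CPM in other nuclei, a log2 fold of 1.09 ± 0.11, and Slit1, a repellent ligand of Robo receptors, rose by 1.18 ± 0.16. Of 47 synaptic adhesion and cadherin genes 7 rose and 11 fell. Cdh9, a cadherin of the synapses between granule neurons and CA3, rose by 1.37 ± 0.15, with 142 ± 22.6 CPM in granule-gated and 55.7 ± 9.18 CPM in other nuclei. Ntm, the GPI-anchored protein neurotrimin, stood at 109, 70.7, 53.7 and 64.9 CPM in granule-gated nuclei, against 340, 270, 211 and 234 CPM in other nuclei. Its log2 fold was -1.80 ± 0.14 (edgeR adjusted p = 4.72e-06), and Lphn2, a latrophilin now named Adgrl2, fell by 1.77 ± 0.17. Of 25 growth factor and Notch or Wnt genes 4 rose and 2 fell, with Vegfa, the vascular growth factor, at a log2 fold of -1.05 ± 0.18. When glia-marked nuclei were left out of both classes, 5 of 26 guidance genes rose and 4 fell, and 7 of 43 adhesion genes rose and 11 fell. In that setting 2 of 18 growth factor genes rose and 2 fell, and over all genes 6.29% rose and 5.55% fell. The growth factor counts are not read as a result about that list.

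Of 47 transcription factors of forebrain neurons, 13 rose and 10 fell, with a median of -0.22, beside 4.59% higher and 3.52% lower over all genes. Those called higher included Rfx3, Glis3, Neurod1, Neurod2, Nfia, Nfib and Nfix, and those called lower included the cortical factors Fezf2, Rorb, Cux1 and Cux2. Some of these calls were lost under other settings: Nfia under 7 (DESeq2 adjusted p = 0.128), Nfix and Rorb under 5 each, Fezf2 under 4, Cux1 under 3 and Cux2 under 2. Leaving out unit 2 or unit 3 was among these settings for Nfia, Nfix, Rorb and Fezf2, as was leaving out unit 1 for Nfix and Rorb. Of 38 factors tested with glia-marked nuclei left out of both classes, 11 rose and 11 fell, beside 6.29% and 5.55% over all genes. Of the 24 listed neurogenesis genes 16 could be tested, of which Bhlhe22 and Neurod1 were called higher and Dcx, Hes5, Nnat and Gap43 lower. The calls of Hes5 and Gap43 were each lost under 5 alternatives and that of Nnat under 6, with DESeq2, without unit 1 and without unit 3 among them for each gene. With glia-marked nuclei left out of both classes, 11 could be tested, 2 rose and 3 fell, and Nnat stood at -0.04 (edgeR adjusted p = 0.973). Dcx, the microtubule protein of immature neurons, averaged 36.0 ± 14.1 CPM in granule-gated and 79.3 ± 17.9 CPM in other nuclei, a log2 fold of -1.19 ± 0.24 that did not pass without unit 2 (edgeR adjusted p = 0.0511). The call of Dcx was also lost with unit 0 and glia-marked granule nuclei both left out (-0.915, edgeR adjusted p = 0.0542). Neurod1 rose by 0.97 ± 0.18 and Bhlhe22, a bHLH repressor, by 1.46 ± 0.24. At 500 UMIs, 6.93%, 2.44%, 1.84% and 1.38% of granule-gated nuclei in units 0 to 3 showed 2 neurogenesis genes, against 6.96%, 6.19%, 6.10% and 5.40% of other nuclei. The share was lower in 4 of 4 units, with an exact two-sided sign-flip permutation p of 2 in 16 assignments, the smallest that 4 units allow. The gap was small in unit 0. Summed, the listed neurogenesis genes made 6.66 ± 0.79 UMIs per 10000 in granule-gated and 8.26 ± 0.40 in other nuclei (SD, n = 4). In pyramidal-gated nuclei the sum was 6.57 ± 0.55, so the lower sum was not particular to granule-gated nuclei.

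Immediate early genes, which neuronal activity induces, had 2 of 18 tested members called higher (11.1%), Jun and Bdnf, and 1 lower (5.56%), Homer1, beside 4.59% and 3.52% over all genes. With glia-marked nuclei left out of both classes, Jun and Bdnf again were called higher, and 5 of 13 tested were called lower, Nr4a1, Nr4a2, Egr1, Arc and Homer1. The shares over all genes were then 6.29% higher and 5.55% lower. Jun stood at 223, 192, 82.6 and 175 CPM in granule-gated nuclei, against 107, 67.1, 59.1 and 91.0 CPM in other nuclei, a log2 fold of 1.06 ± 0.16, and unit 2 of the granule-gated nuclei lay within the range of the other nuclei. Homer1, a postsynaptic scaffold, had a log2 fold of -1.05 ± 0.30, close to the threshold (edgeR adjusted p = 0.046), and the call was lost under 10 alternatives, DESeq2 among them (adjusted p = 0.137). Without unit 0 its fold was -0.42, and without unit 0 and glia-marked granule nuclei it was -0.22. As a programme, the 21 listed genes summed to 8.14 ± 2.16 UMIs per 10000 in granule-gated and 8.30 ± 1.08 in other nuclei (SD, n = 4; exact two-sided sign-flip permutation p = 0.875). At 500 UMIs, 5.28% ± 1.57 of granule-gated and 6.34% ± 0.76 of other nuclei showed 2 of them, lower in 4 of 4 units (exact two-sided sign-flip permutation, 2 in 16 assignments). At 1000 UMIs the shares were 12.1% ± 3.38 of granule-gated and 14.8% ± 1.12 of other nuclei, lower in 3 of 4 units (exact two-sided sign-flip permutation p = 0.25). Of 10 corticosteroid genes 2 rose and 2 fell. Nr3c2, the mineralocorticoid receptor, rose by 0.84 ± 0.20 (edgeR adjusted p = 0.0194), a call that ended under DESeq2, without unit 0, 2 or 3, after thinning and with glia-marked nuclei left out of both classes (adjusted p = 0.154). In that last setting 1 of 8 corticosteroid genes rose and 1 fell.

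Abundant noncoding RNAs were lower in the gated nuclei, with 4 of 7 tested lower and 0 higher, a median of -0.81. All genes tested had 3.52% lower and 4.59% higher. Snhg11, a neuronal host transcript of small nucleolar RNAs (chr2:158375638-158386145, plus strand), stood at 6687, 8057, 7313 and 7153 CPM in granule-gated nuclei, against 15393, 16662, 18177 and 17664 CPM in other nuclei. Each granule-gated unit was below each other unit, with a log2 fold of -1.20 ± 0.06 and edgeR's adjusted p at 5.34e-07, the smallest among the genes described for this comparison. At 500 UMIs it was seen in 66.6% of granule-gated and 77.3% of other nuclei. Meg3, a maternally expressed imprinted transcript, averaged 18199 ± 3014 CPM in granule-gated and 35396 ± 3974 CPM in other nuclei, a log2 fold of -0.95 ± 0.07, and Mirg and Rian of the same imprinted cluster fell as well. Of 32 cytosolic ribosomal protein genes 5 rose and 0 fell, and of 8 mitochondrially encoded transcripts 0 were called in either direction. Without glia-marked nuclei in either class, 4 of 7 noncoding RNAs were lower and 0 higher, and 5 of 28 ribosomal protein genes were higher and 0 lower. Of 3 mitochondrial transcripts 0 were called, and over all genes 6.29% were higher and 5.55% lower in that setting.

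Against the pyramidal-gated nuclei, 4041 genes passed the filter on low counts, since that class held 22, 22, 26 and 31 nuclei. Of these, 450 (11.1%) were called, 221 (5.47%) higher and 229 (5.67%) lower in granule-gated nuclei. The calls numbered 147 under DESeq2, 322 without unit 0, 393 without unit 1, 308 without unit 2, 294 without unit 3 and 60 after thinning to 500 UMIs. With the pyramidal class widened to 187 unmarked nuclei and glia-marked nuclei left out of both classes, 426 of 2964 genes (14.4%) were called, 228 (7.69%) higher and 198 (6.68%) lower. Granule-gated nuclei had a median of 1405 UMIs, against 2618 in pyramidal-gated nuclei.

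Granule identity genes were higher here too: 14 of 17 tested rose and 0 fell, with a median log2 fold of 2.11 beside 0.00 for all genes tested. The classes were picked by other granule and pyramidal genes, so this direction is no independent evidence. The low-count filter can pass a gene through the granule-gated class alone, and Npnt had 153 UMIs there and 1 in pyramidal-gated nuclei. In the wider class without glia-marked nuclei, 13 of 15 rose and 1 fell. The shares over all genes were 5.47% higher and 5.67% lower in the main setting, and 7.69% and 6.68% in the wider class. Ahcyl2 stood at 505, 579, 901 and 657 CPM in granule-gated nuclei, against 130, 85.9, 128 and 145 CPM in pyramidal-gated nuclei, a log2 fold of 2.29 ± 0.23 (edgeR adjusted p = 6.01e-20). Rfx3 stood at 281 to 344 CPM in granule-gated nuclei and at 36.2 to 56.9 CPM in pyramidal-gated nuclei, a log2 fold of 2.60 ± 0.33. Stxbp6 averaged 194 ± 28.6 CPM in granule-gated and 15.1 ± 15.3 CPM in pyramidal-gated nuclei, on 5 UMIs in the pyramidal-gated nuclei, a log2 fold of 3.47 ± 0.47. Slc4a4 rose by 2.73 ± 0.33 and Calb1 by 1.96 ± 0.36. Zbtb20, in contrast, stood at 2876, 3479, 3458 and 3407 CPM in granule-gated nuclei, against 4577, 3128, 3313 and 2789 CPM in pyramidal-gated nuclei. The units overlapped and the log2 fold was -0.12 ± 0.12 (edgeR adjusted p = 0.62), but it was 0.45 and called in the wider class without glia-marked nuclei (adjusted p = 1.22e-05).

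Some of the largest rises rested on 1 to 3 UMIs in the pyramidal-gated nuclei. Npnt had 153 UMIs in granule-gated and 1 in pyramidal-gated nuclei, a ratio of CPM of 31.4 with an exact counting interval of 5.55 to 1248. Shisa9, an AMPA receptor auxiliary protein of granule neurons, had 160 UMIs in granule-gated and 2 in pyramidal-gated nuclei, a ratio of 16.4 (4.47 to 137). Trpc6 had 128 and 2 UMIs in these classes, a ratio of 13.1 (3.56 to 110). Vstm2a, an immunoglobulin-domain protein, had 155 UMIs in granule-gated and 3 in pyramidal-gated nuclei, a ratio of 10.6 (3.56 to 52.0). Pltp, Rgs5, Cxcl12, Itm2a and Ly6c1 were also among the 12 largest rises, and all of them are known from vascular cells. Rgs5, a pericyte gene, stood at 1069 CPM in granule-gated nuclei of unit 0 and at 94.3, 165 and 291 CPM in units 1 to 3, against 0 to 24.1 CPM in pyramidal-gated nuclei. Unit 0 was the highest of the granule-gated units in all 5 vascular genes, as it was for the endothelial marker list, and none of the 5 passed the filter on low counts in the wider class without glia-marked nuclei.

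Genes of pyramidal neurons outside the gate were lower in granule-gated nuclei, with 7 of 10 tested lower and 0 higher and a median of -1.24. Both pyramidal classes were picked by other pyramidal genes, and the low-count filter can pass a gene through the pyramidal class alone. The direction of this list is therefore no independent evidence. Man1a, a Golgi mannosidase on that list, stood at 16.1, 26.9, 33.1 and 31.0 CPM in granule-gated nuclei, against 90.3, 223, 327 and 205 CPM in pyramidal-gated nuclei. The units did not overlap and the log2 fold was -2.95 ± 0.36, and against all other nuclei it was -1.65 ± 0.20. Neurod6, a bHLH factor of pyramidal neurons, averaged 75.6 ± 24.7 CPM in granule-gated and 328 ± 109 CPM in pyramidal-gated nuclei, a log2 fold of -2.24 ± 0.26. Cpne7, a calcium-binding copine, fell by 2.61 ± 0.21, with 188, 77.5, 70.2 and 87.4 CPM in granule-gated nuclei, against 662, 344, 654 and 857 CPM in pyramidal-gated nuclei. In the wider class without glia-marked nuclei, 5 of 9 listed pyramidal genes were lower and 0 higher. All genes tested had 5.67% lower in the main setting and 6.68% lower in the wider class. Ndst3, Plxna1, Col11a1, Asap2, Rprml and Pde1a had log2 folds between -2.13 and -2.47.

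Of 19 mossy fibre and vesicle genes, 6 rose and 4 fell against pyramidal-gated nuclei. Synpr averaged 166 ± 43.9 CPM in granule-gated and 38.3 ± 14.9 CPM in pyramidal-gated nuclei, a log2 fold of 2.01 ± 0.39, and Adcy1 rose by 1.54 ± 0.22 and Cplx2 by 1.11 ± 0.19. Gria1 lay the other way, at 1654 ± 221 CPM in granule-gated and 2070 ± 119 CPM in pyramidal-gated nuclei, a log2 fold of -0.40 ± 0.13 (edgeR adjusted p = 0.0221). That call was lost under 12 of 14 alternatives, DESeq2 among them, and the adjusted p was 0.424 in the wider class without glia-marked nuclei. Of 14 AMPA and kainate genes 1 rose and 5 fell, and of 11 GABA receptor genes 1 rose and 0 fell. Of 19 potassium channel genes 2 rose and 4 fell; Kcnk1, a potassium leak channel, averaged 159 ± 4.09 CPM in granule-gated and 26.4 ± 22.0 CPM in pyramidal-gated nuclei, a log2 fold of 2.38 ± 0.43. In the wider class without glia-marked nuclei, 6 of 17 mossy fibre and vesicle genes rose and 0 fell, and 2 of 13 AMPA and kainate genes rose and 2 fell. There 3 of 10 GABA receptor genes rose and 0 fell, and 6 of 17 potassium channel genes rose and 4 fell. The shares over all genes were 5.47% higher and 5.67% lower in the main setting, and 7.69% and 6.68% in the wider class. The single GABA receptor call of the main setting is not read as a result about that list.

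Of 21 calcium store, pump and kinase genes 3 rose and 5 fell against pyramidal-gated nuclei. Ryr3 stood at 175, 168, 202 and 228 CPM in granule-gated nuclei, against 652, 447, 953 and 568 CPM in pyramidal-gated nuclei, a log2 fold of -1.80 ± 0.19 with no overlap. Prkcb fell by 1.79 ± 0.24, and Atp2b1, a plasma membrane calcium pump, by 0.83 ± 0.12. Of 26 adhesion genes 3 rose and 6 fell, with Nrxn3, a neurexin, down by a log2 fold of -1.31 ± 0.20, and of 16 guidance genes 2 rose and 3 fell, with Epha5 at -1.20 ± 0.17. The call of Epha5 was lost after thinning (-0.905, edgeR adjusted p = 0.0737). Of 20 transcription factors 5 rose and 2 fell, the 2 being Neurod6 and Bcl11a, a zinc-finger repressor whose log2 fold was -1.38 ± 0.24. In the wider class without glia-marked nuclei, 5 of 20 calcium store genes rose and 5 fell, and 5 of 23 adhesion genes rose and 6 fell. There 3 of 13 guidance genes rose and 2 fell, and 6 of 19 transcription factors rose and 3 fell. The shares over all genes were 5.47% higher and 5.67% lower in the main setting, and 7.69% and 6.68% in the wider class.

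Of 5 immediate early genes that could be tested against pyramidal-gated nuclei, Jun and Bdnf were called higher, and Arc, Homer1 and Nr4a1 lower. The call of Bdnf was lost under DESeq2 (adjusted p = 0.124) and in the wider pyramidal class (fold 0.61), and that of Nr4a1 under 6 alternatives, among them DESeq2 (adjusted p = 0.197) and without unit 1 (fold -0.77), 2 or 3. In the wider class without glia-marked nuclei, 3 could be tested, Jun and Bdnf higher and Nr4a1 lower. The shares over all genes were 5.47% higher and 5.67% lower in the main setting, and 7.69% and 6.68% in the wider class. Jun stood at 223, 192, 82.6 and 175 CPM in granule-gated nuclei, against 10.04, 17.2, 28.4 and 12.1 CPM in pyramidal-gated nuclei, on 5 UMIs in the pyramidal-gated nuclei, a log2 fold of 3.30 ± 0.49. Arc, which tags active synapses, averaged 26.6 ± 21.8 CPM in granule-gated and 116 ± 47.6 CPM in pyramidal-gated nuclei, a log2 fold of -2.13 ± 0.42. Snhg11 and Meg3 were lower than in pyramidal-gated nuclei as well, with log2 folds of -1.65 ± 0.10 and -1.34 ± 0.10. Snhg11 stood at 6687 to 8057 CPM in granule-gated nuclei and at 20684 to 23790 CPM in pyramidal-gated nuclei.

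**Figure D5:**
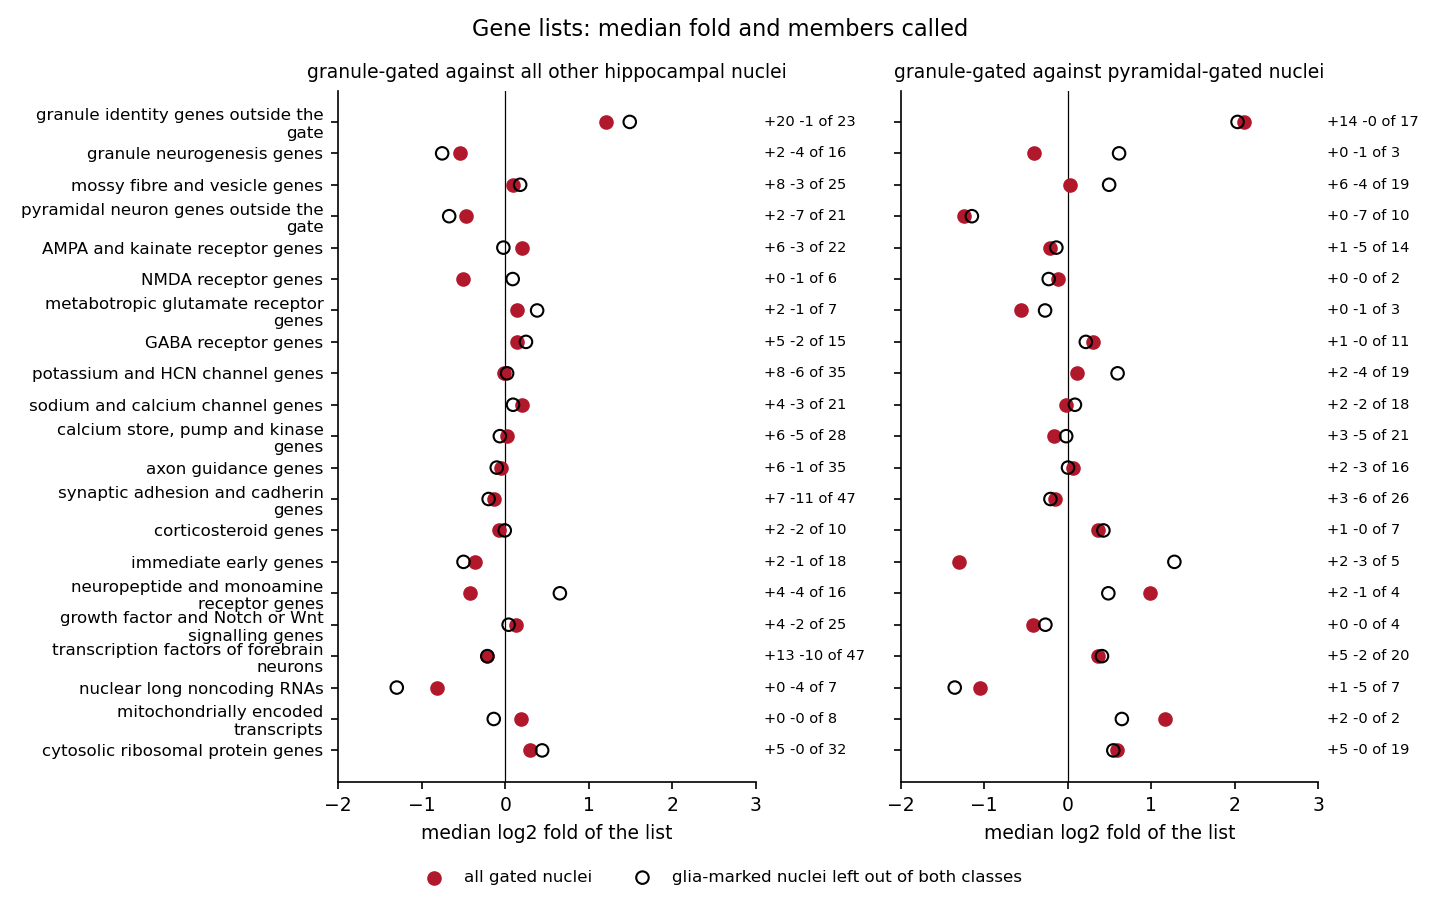
Points give the median log2 fold of each gene list, granule-gated over all other hippocampal nuclei (left) and over pyramidal-gated nuclei (right); filled points use all gated nuclei and open points leave glia-marked nuclei out of both classes, with the wider pyramidal class at right. Numbers at the right of each panel give members higher, lower and tested, and the identity list lies farthest to the right among the filled points, at 1.20 and 2.11.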

How the data were processed

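The deposited file gives unnormalised UMI counts for each gene in each nucleus; all its values are whole numbers. Per the submitters' processing notes, STAR and Seurat were used with build mm10. The collapse of UMIs, the use of intronic reads and the choice of nuclei are not stated there. A set of 1689 columns matches no labelled sample and was not used. Raw counts were summed per unit and class, and each fit covered all genes that passed edgeR's filterByExpr. The main test was edgeR 4.0.16 in R 4.3.3 (TMM, quasi-likelihood, Benjamini-Hochberg over all genes tested, call at adjusted p under 0.05), with the unit as a block, since both sums of a unit come from the same libraries. DESeq2 1.42.0 was an alternative. The SE is the log2 fold divided by the root of F. P-values measure the spread between units, which may be technical, and in the pyramidal comparison genes share nearly all of the estimated spread, so p-values there are small. CPM scales a gene's UMIs to 1000000 UMIs of the whole sum. The scripts were tested on simulated data.

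Doublets were scored against simulated pairs (scanpy 1.11.5). The automatic threshold failed in most libraries, so the top 6% per library were called, 793 nuclei (6.82%). Main results include them, and an alternative leaves them out.

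Members and lists were chosen with earlier results of these data known. Named genes passed the test, averaged at least 50 CPM in the higher class, had the same sign in all 4 units and carried no predicted-gene name. The 12 largest folds per direction were taken, with up to 3 members of each list by smallest p. Further list members, named because they were called or illustrate the list, were chosen after their values were seen. A few genes that the rule named are not reported here.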

Additional observations from a re-analysis of the deposited data

Results flagged for a closer look

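Among 86 sets of 4 units examined, 7 had 1 unit of granule-gated nuclei far from the others, all of them genes described above. About 1 in 20 groups is expected to show this by chance, and the units were not left out for it. Unit 0 was low in Npy2r (33.7 CPM, with the others at 73.3 to 74.4), in Zbtb20 (2876 CPM, others 3407 to 3479) and in Trpc6 (65.9 CPM, others 94.3 to 99.2). It was high in Tox3 (12.9 CPM, others 2.82 to 4.13) and in Rims3 (32.1 CPM, others 3.37 to 8.26). Calb1 was high in unit 2 (264 CPM, others 179 to 186). Vgf, a neurosecretory granule protein, was high in unit 1 (60.6 CPM, others 16.5 to 22.6). Glia-marked nuclei made up 59.6% of granule-gated nuclei in unit 0 and 37.7% to 40.4% in the other units; their part in these values was not tested.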

How the results depend on the processing

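Of 126 gene results (1 gene in 1 comparison), 124 were called. Of the called ones, 100 kept their call and direction under every alternative in which the gene was tested, and 0 reversed. A gene that did not pass the low-count filter under an alternative was not counted there, so a kept call can rest on fewer settings. After thinning to 500 UMIs, 73 of the 126 results were unchanged, 10 lost their call and 1 reversed, and the rest were not tested. The 859 genes called against all other nuclei became 456 with DESeq2, 554 in the gate of at least 3 UMIs, 1705 without glia-marked granule nuclei (755 higher, 950 lower), 1533 without these and unit 0, and 333 to 1516 when 1 unit was left out. Without the low-count filter 450 rose and 733 fell, with the median of all genes at -0.18. The 450 called against pyramidal-gated nuclei became 147 with DESeq2, 60 after thinning to 500 UMIs (795 genes tested), 281 in gated nuclei with C1ql2 or Dsp, and 294 to 393 when 1 unit was left out. Without the replicate block the counts were 737 and 366. The share of nuclei in the gate was 10.1% with at least 3 UMIs, 8.68% with glia-marked nuclei left out of the gated count alone, 16.2% with them left out of all nuclei counted, and 13.7% to 16.7% when 1 unit was left out. The difference in nuclei with 2 immediate early genes ran from -1.38 to -0.562 percentage points when 1 unit was left out. Zbtb20 against pyramidal-gated nuclei was -0.12 and not called. It turned positive without the filter (0.011), without unit 0 (0.096), after thinning (0.039) and without glia-marked granule nuclei (0.033). It was also positive in the wider pyramidal class (0.404) and in that class without glia-marked nuclei (0.446). With 1 unit left out its fold ran from -0.223 to 0.096, and only the removal of unit 0 made it positive. The cause of these shifts was not tested. The wider class, the C1ql2 or Dsp subset and the removals from both classes were chosen after seeing the data. Against pyramidal-gated nuclei, libraries 0a and 0b as separate samples and the removal of doublet calls were not run, since a sum then held 11 or 18 nuclei, under the minimum of 20. Depth limits genes under about 10 CPM, where a class held a few UMIs.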
